A study of Caenorhabditis elegans with 4 samples.

Results

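The vacuolar ATPase (V-ATPase) and autophagy genes were followed through hypoxia and feeding RNAi in adult Caenorhabditis elegans. The V-ATPase is a rotary proton pump that acidifies lysosomes and, in the worm, the lumen of the intestine. Its V1 sector hydrolyses ATP in the cytosol and its V0 sector carries protons through the membrane. Autophagy encloses cytoplasm in a double membrane that fuses with the lysosome, so the pump is needed for the last step of the pathway, and both systems are known targets of the transcription factor HLH-30, the worm homologue of TFEB. Members were the loci whose deposited name begins with vha, atg, epg or lgg followed by a number, plus unc-32, unc-51, bec-1, vps-34, hlh-30 and T12G3.1 (now sqst-1). The rule found 36 of 19852 loci, 17 of the V-ATPase and 19 of autophagy, and all 36 were among the 10655 genes that could be compared. No deposited name began with epg, and 5 names that fit the rule occurred only within 4 loci that name several genes.

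Whole-animal RNA of the wild-type strain N2 was sequenced in 4 libraries with no replicates. The groups were worms kept in hypoxia on bacteria that make double-stranded RNA against elt-2, a gene for an intestinal GATA factor, the same food in normoxia, the empty-vector control food in hypoxia, and the control food in normoxia. Hypoxia was 0.5% oxygen for 36 h, begun at day 1 of adulthood, in a closed chamber at room temperature, and all worms were on RNAi medium with a labelled temperature of 20 C. Levels are RPKM, read numbers scaled to transcript length and to the size of the library, so they can be compared between genes, and each ratio is log2 of (RPKM + 1) over (RPKM + 1). A pairwise difference sets 1 library against another and has no replicate error. An average effect of hypoxia or of RNAi was fitted with limma over all 4 libraries, with Benjamini-Hochberg adjustment over all compared genes. The labels do not state whether the libraries are from separate cultures, and the p-values cover no more than the differences among these libraries, which may be technical.

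The targeted gene went against its label. The transcript of elt-2 was at 23.8 and 14.3 RPKM in the hypoxia and normoxia libraries labelled elt-2 RNAi, against 15.2 and 4.81 RPKM in control hypoxia and control normoxia. It was thus not lower under the elt-2 label at either oxygen level, and what raised it was not tested. These libraries are called elt-2-labelled below, and every RNAi direction rests on that label.

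Most of the 36 genes were at nearly the same level in all 4 libraries. The highest library exceeded the lowest by less than 1.25-fold, on RPKM + 1, in 21 of them (58.3%), against 21.6% of all compared genes and 25.4% of those averaging 5 RPKM or more. The median of this highest-over-lowest ratio was 1.21 for V-ATPase genes, 1.21 for autophagy genes and 1.49 for all compared genes. The members were also more abundant than most genes, with a median mean level of 75.3 RPKM against 23.0 RPKM for all compared genes. The genes with the widest ranges were T12G3.1 and vha-6.

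**Figure D1:**
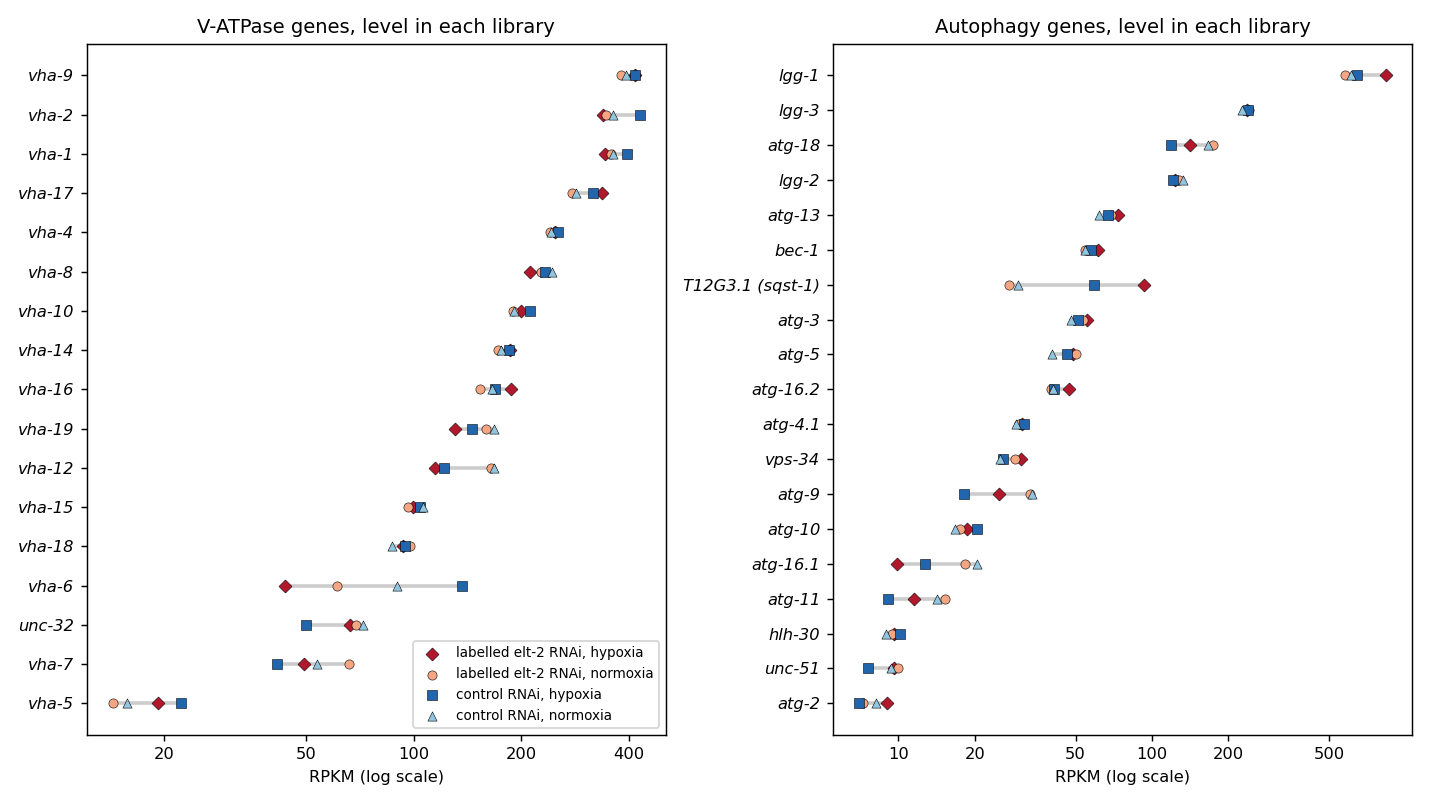
Level of each V-ATPase gene (left) and autophagy gene (right) in RPKM on a log axis, with 1 point per library and a grey bar from the lowest to the highest. T12G3.1, between 27.2 and 93.1 RPKM, and vha-6, between 43.5 and 137 RPKM, have the longest bars.

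Few members passed 2-fold in any pairwise comparison. In elt-2-labelled worms 1 of 36, T12G3.1, was past 2-fold higher in hypoxia and none was lower, where 9.87% of all compared genes were higher and 4.25% lower. In control worms none passed 2-fold under hypoxia, where 9.48% of all compared genes were higher and 3.55% lower. For elt-2-labelled over control worms in hypoxia none was higher and 1, vha-6, was past 2-fold lower, where 1.94% of all genes were higher and 5.08% lower. In normoxia none passed, where 1.23% of all genes were higher and 3.66% lower.

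At 1.5-fold the members past the line in hypoxia were 1 higher and 1 lower of 36 in elt-2-labelled worms (T12G3.1 and atg-16.1), where 18.8% of all genes were higher and 10.8% lower. In control worms 2 were higher (T12G3.1 and vha-6) and 3 lower (atg-9, atg-16.1 and atg-11), where 20.0% of all genes were higher and 11.6% lower. For elt-2-labelled over control worms in hypoxia 1 was higher (T12G3.1) and 1 lower (vha-6), where 4.81% of all genes were higher and 9.11% lower. In normoxia none passed, where 3.06% of all genes were higher and 7.60% lower.

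Averaged over both foods, limma called 5 of the 36 genes for hypoxia, 1 higher and 4 lower, or 13.9% of members against 32.9% of all genes tested. By direction, 17.2% of all genes were called higher and 15.7% lower. The gene that rose was T12G3.1, and those that fell were atg-16.1, vha-12, atg-18 and vha-7. At an unadjusted p under 0.05 there were 10 members (27.8%), against 5350 of all 10655 genes (50.2%). Only 1 degree of freedom was left for error, and it measures how far the hypoxia ratio differs between foods. Of the 5 calls, limma kept atg-16.1 alone without the mean-variance trend, and T12G3.1 and vha-12 without the food term. Where both libraries of a condition are said below to lie above or below both others, this describes 4 values and is no test. How many of all genes were ordered so was not computed.

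**Figure D2:**
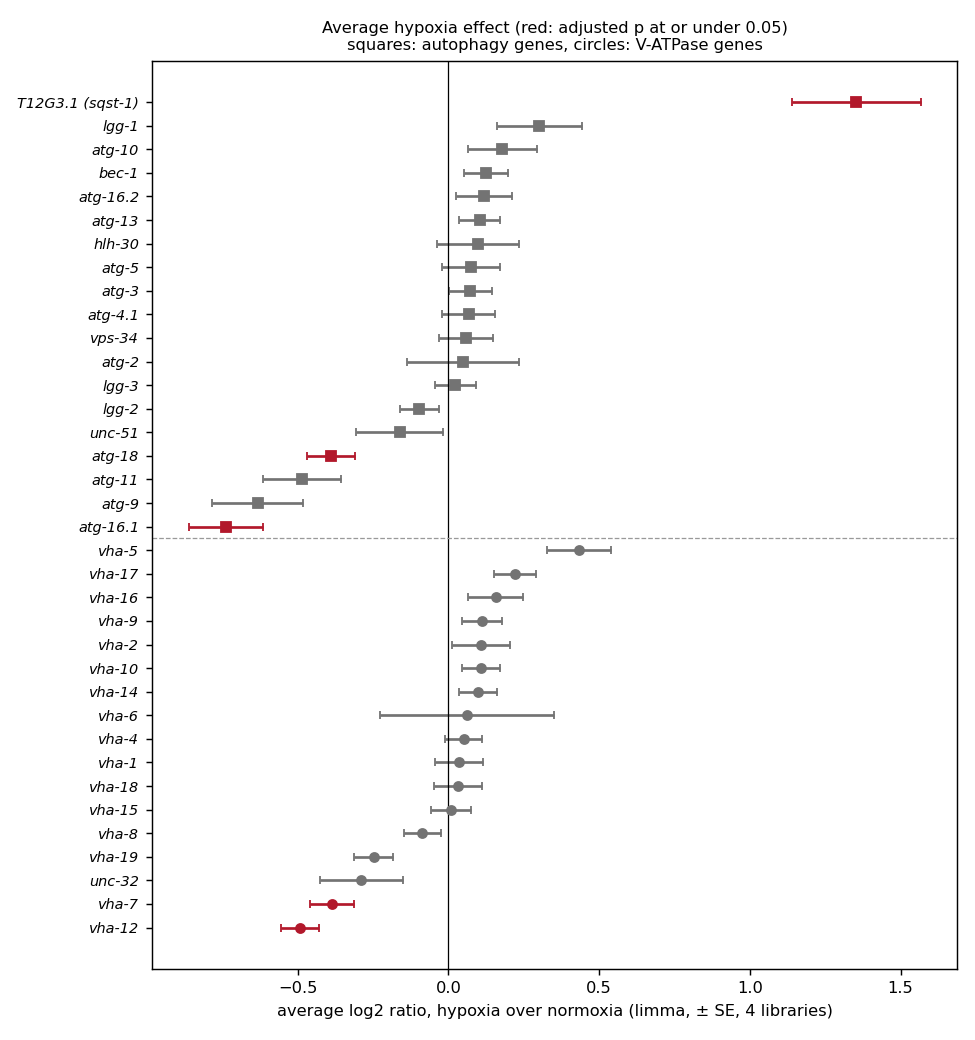
Average log2 ratio of hypoxia over normoxia for each gene with its SE, from limma over 4 libraries. Red points have an adjusted p at or under 0.05. T12G3.1 stands at 1.35 and atg-16.1 at -0.74, while most genes lie close to 0.

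The V1 sector, the ATP-hydrolysing head of the pump, moved little apart from vha-12. It was the only 1 of 7 V1 members that limma called for hypoxia, where 32.9% of all genes were called. This gene encodes a B subunit, part of the nucleotide-binding ring, and spans positions 4191068 to 4193115 of chromosome X (ce10, plus strand). It was at 115 RPKM in elt-2-labelled hypoxia and 165 RPKM in elt-2-labelled normoxia. In control worms it was at 121 RPKM in hypoxia and 167 RPKM in normoxia. Both hypoxia libraries were therefore below both normoxia libraries, and the food made little difference. The average log2 ratio was -0.49 ± 0.06 (SE, 4 libraries; limma adjusted p = 0.0223). It was singled out after its values were seen, since its average fell just short of the size set for full description.

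Beside it, vha-9, the F subunit and the most abundant V-ATPase transcript by mean RPKM, was at 417 RPKM in elt-2-labelled hypoxia, 379.9 in elt-2-labelled normoxia, 417 in control hypoxia and 392 in control normoxia. Its average hypoxia ratio was 0.11 ± 0.07 (limma adjusted p = 0.247). The other V1 members were vha-8 (E), vha-10 (G), vha-14 (D), vha-15 (H) and vha-18 (H). Their average hypoxia ratios ran from -0.09 for vha-8 to 0.11 for vha-10, and limma called none of them. Subunits of one head thus differed in the sign of their ratio, 4 of 7 V1 genes being above 0 and 3 below in each food. The B subunit has a second gene, spe-5, deposited as tag-300, which was scarce, at 7.91 RPKM in elt-2-labelled hypoxia, 10.6 in elt-2-labelled normoxia, 7.37 in control hypoxia and 10.3 in control normoxia. Its average of -0.41 ± 0.13 was not called (limma adjusted p = 0.0877).

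Genes of the V0 ring and stalk were among the most abundant of the pump. The c subunits, small proteolipids that form the proton-carrying ring, include vha-1 and vha-2. These genes are neighbours on the plus strand of chromosome III, vha-1 from 9781166 to 9781977 and vha-2 from 9782071 to 9783137 (ce10), with 93 bases between them. No other members lay within 5000 bases of each other on a shared strand. The transcript of vha-1 was at 343 RPKM in elt-2-labelled hypoxia, 356 in elt-2-labelled normoxia, 395 in control hypoxia and 363 in control normoxia. That of vha-2 was at 338, 345, 429.6 and 362 RPKM in the same order. The level of vha-1 over that of vha-2 stayed between 0.920 and 1.03 in the 4 libraries. Both genes were highest in control hypoxia, with log2 ratios of hypoxia over normoxia of -0.06 for vha-1 and -0.03 for vha-2 in elt-2-labelled worms, against 0.12 for vha-1 and 0.25 for vha-2 in control worms. Limma called neither.

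The e subunit gene vha-17 was at 338 RPKM in elt-2-labelled hypoxia, 278 in elt-2-labelled normoxia, 319 in control hypoxia and 284 in control normoxia. Both hypoxia libraries were above both normoxia libraries, and the average of 0.22 ± 0.07 did not pass (limma adjusted p = 0.0806). The c'' subunit gene vha-4 was between 242 and 254 RPKM in all libraries, and the d subunit gene vha-16 between 153 and 187 RPKM. The accessory subunit gene vha-19 was lower in hypoxia on both foods, with log2 ratios of -0.28 in elt-2-labelled and -0.21 in control worms, and was not called (average -0.25 ± 0.06, limma adjusted p = 0.0575). R03E1.2 (now vha-20), the other accessory subunit, averaged 0.05 ± 0.07 (limma adjusted p = 0.595).

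The a subunit, which anchors V0 and sets where in the animal the pump is placed, had, as a description with no test, wider hypoxia ratios than the rest of the pump. C. elegans has 4 genes for it. vha-6 is known from the apical membrane of the intestine, vha-5 from epidermis and excretory canal, vha-7 from epidermis and uterus, and unc-32 from neurons and several other tissues. For these 4 genes the median absolute log2 ratio of hypoxia over normoxia was 0.40 in elt-2-labelled and 0.50 in control worms. In the same order it was 0.11 and 0.12 for the other 13 V-ATPase members, and 0.34 and 0.38 for all compared genes. The a subunit genes were also the longest of the V-ATPase members, at 2699 to 3901 exonic bases. The part of length in these ratios was not tested.

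vha-6 lies on chromosome II from 11435148 to 11438390 (ce10, minus strand). It was at 43.5 RPKM in elt-2-labelled hypoxia and 61.0 RPKM in elt-2-labelled normoxia. In control worms it was at 137 RPKM in hypoxia and 89.7 RPKM in normoxia. Both elt-2-labelled libraries were below both control libraries, while the order of hypoxia and normoxia was opposite on the 2 foods. Its log2 ratio of hypoxia over normoxia was -0.48 in elt-2-labelled worms and 0.60 in control worms. Its ratio of elt-2-labelled over control was -1.63 in hypoxia and -0.55 in normoxia. Averaged over oxygen, the RNAi effect was -1.09 ± 0.29 and limma did not call it (adjusted p = 0.256). In the authors' deposited table for elt-2-labelled against control hypoxia, vha-6 had an FDR-adjusted p of 0.0624 and was not called, nor was any other member, where 0.599% of all loci in that table were called.

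In bulk RNA of whole worms, fewer cells of a type and less RNA per cell cannot be told apart. The 9 intestine marker names stand for 8 genes, since opt-2 and pept-1 name the same gene. All 8 markers were compared, and none was at 0 in any library. In elt-2-labelled over control hypoxia their median log2 ratio was 0.26, and past 2-fold there were 1 higher and 1 lower. Of all compared genes 1.94% were higher and 5.08% lower. The intestinal filament gene ifb-2 was at 231 RPKM in elt-2-labelled hypoxia and 101 RPKM in control hypoxia, and the brush border actin gene act-5 at 386 and 297 RPKM. The protease gene asp-1 was at 475 RPKM in elt-2-labelled hypoxia and 1767 RPKM in control hypoxia, and the esterase gene ges-1 at 12.1 and 21.8 RPKM. In hypoxia the markers thus went both ways, with 5 of 8 above 0 and 3 below. In normoxia, where the vha-6 ratio was -0.55, the markers had a median log2 ratio of elt-2-labelled over control of -0.62, with 6 of 8 below 0, none past 2-fold higher and 2 past 2-fold lower. There 1.23% of all compared genes were higher and 3.66% lower. The summed level of the markers was 2967 RPKM in elt-2-labelled hypoxia, 2515 in elt-2-labelled normoxia, 3812 in control hypoxia and 4868 in control normoxia, and the yolk gene vit-3 alone was at 1762, 1997, 1548 and 3871 RPKM in the same order. Their part in the vha-6 values was not tested.

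The other a subunit genes did not follow vha-6. unc-32 was at 66.1 RPKM in elt-2-labelled hypoxia, 69.0 in elt-2-labelled normoxia, 50.03 in control hypoxia and 72.1 in control normoxia. Control hypoxia stood below the other libraries, and the average hypoxia effect of -0.29 ± 0.14 was not called (limma adjusted p = 0.175). vha-7 was at 49.4 RPKM in elt-2-labelled hypoxia, 65.9 in elt-2-labelled normoxia, 41.3 in control hypoxia and 53.4 in control normoxia. It fell in hypoxia, with an average log2 ratio of -0.39 ± 0.07 (limma adjusted p = 0.0347), and both hypoxia libraries were below both normoxia libraries. vha-5, the least abundant, was at 19.2 RPKM in elt-2-labelled hypoxia, 14.4 in elt-2-labelled normoxia, 22.2 in control hypoxia and 15.8 in control normoxia. Both hypoxia libraries were above both normoxia libraries, and its average of 0.43 ± 0.11 missed the threshold (limma adjusted p = 0.0527).

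The make-up of the a subunit transcripts therefore differed between libraries. vha-6 made up 24.4% of their summed RPKM in elt-2-labelled hypoxia, 29.02% in elt-2-labelled normoxia, 54.6% in control hypoxia and 38.8% in control normoxia. It was the most abundant a subunit transcript in both control libraries. In both elt-2-labelled libraries unc-32 was the most abundant, at 37.1% in hypoxia and 32.8% in normoxia. The summed level of the 4 genes was 178 RPKM in elt-2-labelled hypoxia, 210.2 in elt-2-labelled normoxia, 250.3 in control hypoxia and 231 in control normoxia. The other 13 V-ATPase members summed to 2907, 2863, 3078 and 2948 RPKM in the same order. All compared genes summed to 1041500, 909807, 1081480 and 929232 RPKM, more in both hypoxia libraries. Summed levels, here and for the markers, are not shares of these totals.

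**Figure D3:**
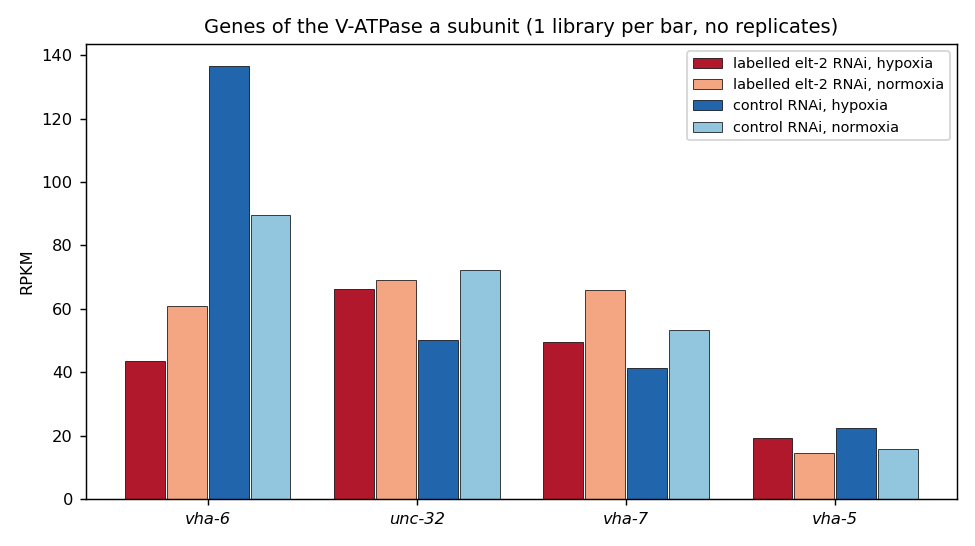
RPKM of the 4 genes of the V-ATPase a subunit, with 1 bar per library and no replicates. vha-6 is at 137 RPKM in control hypoxia and 43.5 RPKM in elt-2-labelled hypoxia, while vha-5 stays between 14.4 and 22.2 RPKM.

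Of the autophagy genes, T12G3.1 had the highest hypoxia ratio. It encodes SQST-1, the homologue of mammalian p62, a cargo adaptor that binds ubiquitinated protein and the ATG8 proteins and is itself degraded by autophagy. The locus is on chromosome IV from 12034230 to 12037027 (ce10, plus strand). It was at 93.1 RPKM in elt-2-labelled hypoxia and 27.2 RPKM in elt-2-labelled normoxia. In control worms it was at 58.9 RPKM in hypoxia and 29.6 RPKM in normoxia. Both hypoxia libraries were well above both normoxia libraries, which were close to each other.

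The log2 ratio of hypoxia over normoxia for T12G3.1 was 1.74 in elt-2-labelled worms and 0.97 in control worms, the control value lying just short of 2-fold. The average hypoxia effect was 1.35 ± 0.21 (SE, 4 libraries; limma adjusted p = 0.0281). In hypoxia it was higher on the elt-2 label, with a log2 ratio of 0.65, against -0.12 in normoxia. Limma did not call the average RNAi effect of 0.27 ± 0.21 (adjusted p = 0.543). In the authors' deposited tables T12G3.1 was called in elt-2-labelled hypoxia against elt-2-labelled normoxia (FDR-adjusted p = 0.0284), the 1 member of 36 called in that table, where 0.458% of all loci were called. In the authors' deposited table for the control pair it had an FDR-adjusted p of 0.579 and no member was called, where 0.307% of all loci were called.

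The ATG8 proteins, which are joined to lipid on the growing membrane and to which SQST-1 binds, are encoded by lgg-1 (GABARAP type) and lgg-2 (LC3 type). lgg-1 was the most abundant of all 36 transcripts, at 841 RPKM in elt-2-labelled hypoxia, 580.0 in elt-2-labelled normoxia, 643 in control hypoxia and 612 in control normoxia. Elt-2-labelled hypoxia stood above the others, which lay close together, and the average hypoxia effect of 0.30 ± 0.14 was not called (limma adjusted p = 0.168). lgg-2 was at 123, 128, 121 and 133 RPKM in the same order, and its average of -0.10 ± 0.06 was not called either (limma adjusted p = 0.297). lgg-1 was 6.82 times as abundant as lgg-2 in elt-2-labelled hypoxia, 4.52 times in elt-2-labelled normoxia, 5.31 times in control hypoxia and 4.60 times in control normoxia.

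None of the 3 genes that start autophagy was called for hypoxia by limma, where 32.9% of all genes were called. unc-51, the ULK1 kinase homologue, was at 9.56 RPKM in elt-2-labelled hypoxia, 9.94 in elt-2-labelled normoxia, 7.58 in control hypoxia and 9.35 in control normoxia. Its partner atg-13 was between 62.0 and 73.3 RPKM. atg-11 (now epg-7), a scaffold known to bring SQST-1 to the UNC-51 complex, was at 11.5 RPKM in elt-2-labelled hypoxia, 15.3 in elt-2-labelled normoxia, 9.13 in control hypoxia and 14.2 in control normoxia. For atg-11 both hypoxia libraries were below both normoxia libraries, and the average of -0.49 ± 0.13 was not called (limma adjusted p = 0.0615).

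The lipid kinase complex that nucleates the membrane differed little between libraries. vps-34, the phosphatidylinositol 3-kinase, was at 30.4 RPKM in elt-2-labelled hypoxia, 28.7 in elt-2-labelled normoxia, 25.8 in control hypoxia and 25.2 in control normoxia. bec-1, the Beclin 1 homologue, was at 61.3, 54.7, 57.7 and 54.3 RPKM in the same order. Neither was called for hypoxia, with averages of 0.06 ± 0.09 for vps-34 (limma adjusted p = 0.627) and 0.12 ± 0.07 for bec-1 (limma adjusted p = 0.244). Y106G6A.2 (now epg-8), their partner of ATG14 type, averaged 0.06 ± 0.07.

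In the group around ATG-9, which supplies and shapes the membrane, limma called 1 of 3 genes lower in hypoxia. Of all genes 15.7% were called lower. atg-18, a WIPI protein that binds the lipid made by VPS-34, was at 141.8 RPKM in elt-2-labelled hypoxia, 174 in elt-2-labelled normoxia, 119 in control hypoxia and 167 in control normoxia. It fell by an average of 0.39 on the log2 scale (-0.39 ± 0.08; limma adjusted p = 0.0390), with both hypoxia libraries below both normoxia libraries. atg-9, the transmembrane protein of the pathway, was at 24.8 RPKM in elt-2-labelled hypoxia, 33.06 in elt-2-labelled normoxia, 18.1 in control hypoxia and 33.8 in control normoxia. Its control ratio of -0.87 was the lowest of the 36 genes, its ratio in elt-2-labelled worms was -0.40, and its average of -0.63 ± 0.15 lay at the threshold without passing it (limma adjusted p = 0.05001). atg-2, the lipid transfer partner of these proteins, was scarce, at 9.05, 7.22, 7.01 and 8.13 RPKM in the order just used, and had ratios of opposite sign on the 2 foods. The genes atg-18, atg-9, atg-11, atg-2, atg-16.2, epg-2 and epg-3 were chosen for full description after their values were seen.

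Conjugation genes attach ATG12 to ATG5 and lipid to the ATG8 proteins. Limma called 1 of 7 lower in hypoxia, where 15.7% of all genes were called lower. atg-16.1, on chromosome X from 4459625 to 4462584 (ce10, minus strand), encodes the ATG16 scaffold that places the conjugation machinery on the membrane. It was at 9.84 RPKM in elt-2-labelled hypoxia, 18.4 in elt-2-labelled normoxia, 12.8 in control hypoxia and 20.4 in control normoxia. Both hypoxia libraries were below both normoxia libraries, with log2 ratios of -0.84 in elt-2-labelled and -0.64 in control worms and an average of -0.74 ± 0.12 (limma adjusted p = 0.0303).

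Its paralogue atg-16.2 was at 47.0 RPKM in elt-2-labelled hypoxia, 40.1 in elt-2-labelled normoxia, 40.999 in control hypoxia and 40.6 in control normoxia, and limma did not call it (average 0.12 ± 0.09, adjusted p = 0.362). The level of atg-16.1 over that of atg-16.2 was 0.210 in elt-2-labelled hypoxia, 0.458 in elt-2-labelled normoxia, 0.311 in control hypoxia and 0.504 in control normoxia. The remaining conjugation genes were lgg-3 (the ATG12 homologue), atg-3, atg-4.1, atg-5 and atg-10. Their average hypoxia ratios ran from 0.02 for lgg-3 to 0.18 for atg-10, and limma called none of them. hlh-30, the TFEB homologue, was at 9.58 RPKM in elt-2-labelled hypoxia, 9.43 in elt-2-labelled normoxia, 10.2 in control hypoxia and 8.90 in control normoxia, with an average of 0.10 ± 0.14 (limma adjusted p = 0.592). HLH-30 is known to be controlled by its entry into the nucleus, which RNA levels do not show.

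**Figure D4:**
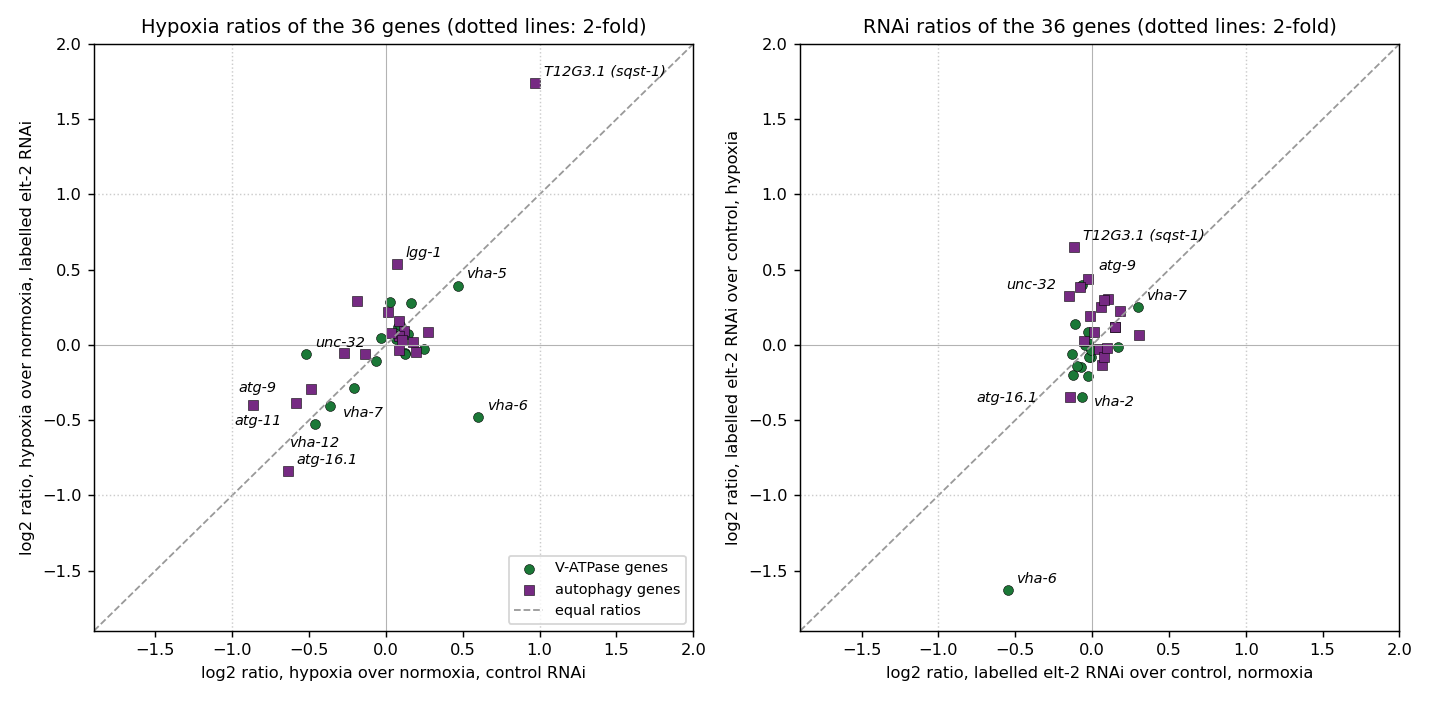
Log2 ratios of the 36 genes for hypoxia over normoxia (left, elt-2-labelled against control worms) and for elt-2-labelled over control worms (right, hypoxia against normoxia). T12G3.1 is at 1.74 and 0.97 for hypoxia, vha-6 is at -0.48 and 0.60, and most genes lie near the centre.

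As groups, the 2 lists of members had median ratios close to those of all genes, and smaller absolute hypoxia ratios. V-ATPase members had a median log2 ratio of hypoxia over normoxia of -0.03 in elt-2-labelled and 0.08 in control worms, autophagy members of 0.03 and 0.07, and all compared genes of -0.01 and 0.01. The median absolute ratio was 0.12 and 0.15 for V-ATPase members, 0.09 and 0.17 for autophagy members, and 0.34 and 0.38 for all compared genes. Between foods, ratios of opposite sign occurred for 5 of 17 V-ATPase and 3 of 19 autophagy members. The share among all compared genes was not computed. Of these members only vha-6 had both ratios beyond 0.25 on the log2 scale, and its ratios lay farthest apart. For elt-2-labelled over control worms, V-ATPase members had medians of -0.06 in hypoxia and -0.05 in normoxia, and autophagy members of 0.12 and 0.06, against 0.05 and 0.04 for all compared genes. Limma called none of the 36 for the average RNAi effect, where 0.131% of all genes were called higher, 0.976% lower and 1.11% either, and 2 members, vha-6 and vha-7, had an unadjusted p under 0.05 (5.56%, against 16.3% of all genes).

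Transcript length moved with the control hypoxia ratios and with the RNAi ratios in hypoxia. Across the 36 genes Spearman's rho of exonic length with the ratio of hypoxia over normoxia was -0.27 in elt-2-labelled and -0.44 in control worms, against -0.20 and -0.26 across all compared genes with a length. Across those averaging 5 RPKM or more, as every member does, it was -0.25 and -0.34. For elt-2-labelled over control worms, rho across the 36 genes was 0.37 in hypoxia and -0.09 in normoxia. Across all compared genes with a length it was 0.25 and 0.14, and across those averaging 5 RPKM or more 0.33 and 0.19. These are descriptions across genes that share their libraries. The control hypoxia library enters both the control hypoxia ratio and the RNAi ratio in hypoxia, so these 2 relations are not independent. The 18 members longer than the median of 1548.5 bases had a median control ratio of -0.20, and the 18 shorter ones 0.09. For elt-2-labelled over control worms in hypoxia the medians were 0.21 for the longer and 0.005 for the shorter members. With a trend on length removed, the control median of V-ATPase members was -0.10 and that of autophagy members -0.02, and T12G3.1 passed 2-fold in control worms. The part of length in the values of single genes was not tested.

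Further genes of the same machinery were deposited under other names or in shared loci. Against 15.7% of all genes called lower in hypoxia and 17.2% higher, limma called 1 of 8 such single-gene loci lower and none higher. This was Y37D8A.22 (now epg-3), the VMP1 homologue that acts in membrane remodelling, at 32.1 RPKM in elt-2-labelled hypoxia, 40.5 in elt-2-labelled normoxia, 28.8 in control hypoxia and 39.1 in control normoxia (average -0.38 ± 0.09, limma adjusted p = 0.0456). Y39G10AR.10 (now epg-2), a nematode cargo adaptor, was highest in control normoxia, at 77.1 RPKM, and at 38.9, 45.9 and 42.9 RPKM in elt-2-labelled hypoxia, elt-2-labelled normoxia and control hypoxia. The locus shared by vha-11 (C subunit) and vha-3 (c subunit) was at 116 RPKM in elt-2-labelled hypoxia, 123 in elt-2-labelled normoxia, 155 in control hypoxia and 131 in control normoxia, and its value cannot be split between these genes. The loci of atg-7 with let-70, of atg-4.2 with ZK792.1 and of vha-13 with Y49A3A.3 had log2 ratios between -0.22 and 0.10 in the 4 comparisons.

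Around the pump and the autophagosome, 4 further gene lists were counted. Of 28 lysosome membrane and hydrolase genes 5 rose and 5 fell in the average hypoxia effect (limma), or 35.7% called, close to the 32.9% of all genes. In control worms the ones past 2-fold were the Rab gene glo-1 (12.2 RPKM in hypoxia, 4.97 in normoxia), the sphingomyelinase gene asm-2 (13.6 and 5.69), the cholesterol transport gene ncr-1 (7.503 and 3.08) and, lower, asm-3 (4.16 and 12.1). In elt-2-labelled hypoxia these genes were at 4.74, 7.27, 8.49 and 1.05 RPKM, and in elt-2-labelled normoxia at 2.34, 11.8, 2.94 and 2.70 RPKM. asm-2 thus had ratios of opposite sign on the 2 foods, and limma called glo-1, ncr-1 and asm-3. For elt-2-labelled over control worms 7 of the 28 were past 2-fold lower in hypoxia and 5 in normoxia, and 0 were higher. Of all genes 5.08% and 3.66% were lower, and 1.94% and 1.23% higher. For the average RNAi effect limma called 1 of the 28 lower, where 0.976% of all genes were called lower.

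Of 16 TORC1, AMPK and Rag signalling genes 2 rose and 1 fell by the same test, of 20 genes of endosome to lysosome traffic none rose and 3 fell, and of 4 mitophagy genes 2 rose and 1 fell, where 17.2% of all genes rose and 15.7% fell. None of the TORC1 and traffic genes passed 2-fold in control hypoxia, where 9.48% of all genes were higher and 3.55% lower. Among mitophagy genes dct-1, a BNIP3 homologue that acts as a receptor on mitochondria, was at 102 RPKM in elt-2-labelled hypoxia, 32.5 in elt-2-labelled normoxia, 96.9 in control hypoxia and 38.96 in control normoxia (average 1.46 ± 0.11, limma adjusted p = 0.0144). Its log2 ratios of hypoxia over normoxia were 1.62 in elt-2-labelled and 1.29 in control worms, beside 1.74 and 0.97 for T12G3.1.

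Markers of other tissues also differed between the libraries. For hypoxia over normoxia, the 5 compared body wall muscle markers had medians of 1.16 in elt-2-labelled and 1.04 in control worms, the 8 intestine markers of 1.06 and 1.08, and the 7 markers of the excretory cell, which is rich in V-ATPase, of 0.13 and -0.02. Markers of a tissue did not all move together. Below 0 were 0 of 5 muscle markers in elt-2-labelled and 2 in control worms, and 1 and 2 of 8 intestine markers. Germline markers (6 of 6 compared) had medians of -0.23 and -0.46, and summed to 1657 RPKM in elt-2-labelled hypoxia, 2231 in elt-2-labelled normoxia, 1424 in control hypoxia and 2010.5 in control normoxia. Embryo markers (4 of 4 compared) had medians of -1.76 and -2.06 and summed to 65.0, 164, 104 and 248 RPKM in the same order. Epidermis (4 compared) and neuron markers (5 compared) had medians of 0.70 and 0.31 in elt-2-labelled and 0.91 and 0.48 in control worms, and of 4 sperm markers none was compared. No compared marker of these tissues was at 0 in any library. The part of tissue make-up in the member values was not tested.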

How the data were processed

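The authors deposited RPKM per locus in 6 tables, 1 for each pair of the 4 libraries, per the file headers. Values of a library were the same in every table that held it. TopHat2 2.0.8b, Cufflinks 2.1.1 and build ce10 are named in the submitters' processing notes with no role. The sources used here give no annotation, filter or strand setting. The tables also hold the authors' log2 fold change, p-value and FDR-adjusted p-value per locus, per the file headers, from a test of 1 library against 1 library. Steps of low RPKM values put the worth of 1 read, relative to control normoxia, at 0.877 in elt-2-labelled hypoxia, 1.09 in elt-2-labelled normoxia and 0.993 in control hypoxia, and absolute depth and counting error could not be given.

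Loci with a mean of 1 RPKM or more were compared, leaving out 334 that name several genes and 8 with a status of FAIL, HIDATA or LOWDATA in any table. A pseudocount of 1 RPKM was added, which understates ratios of scarce genes. The limma fit (limma 3.58.1, R 4.3.3) used log2(RPKM + 1), additive terms for oxygen and food, a mean-variance trend and a threshold of 0.05, and was tested on simulated data. Exonic lengths are from the WBcel235 annotation and were found for all 36 members; coordinates are those of the files. Tables were made with pandas 2.3.3, scipy 1.17.1 and statsmodels 0.14.6.

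Values in all libraries were to be given for the 5 most abundant members, members past 2-fold or called with an average of at least 0.5 in size, the a subunits, and lgg-1, lgg-2, bec-1, unc-51, vps-34, hlh-30 and T12G3.1. Listed genes were named where past 2-fold in control hypoxia. Members, lists and tests were chosen with earlier results of these data known. Alternatives were other pseudocounts, filters, centring, a length trend, 1.5-fold, and limma without the trend or the second term. No sequences were used.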

Additional observations from a re-analysis of the deposited data

Results flagged for a closer look

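vha-6 had hypoxia ratios of opposite sign on the 2 foods, both beyond 0.25 on the log2 scale. The ratio was -0.48 in elt-2-labelled worms and 0.60 in control worms, a difference of -1.08. With 1 library per group this difference was not tested. The share of all compared genes with such ratios was not computed. The lysosome gene asm-2 also had them, at -0.63 in elt-2-labelled and 1.12 in control worms.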

How the results depend on the processing

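Each summary value was recomputed under each alternative that applies to it. Of these recomputed values, 216 stayed within 0.1 log2 of the reported median or within 1.5 times the reported count, 27 moved further, and 1 moved further and changed sign. The 216 include pairwise values with no filter and with a mean of at least 5. Those could not move, because every member passes both filters, so they say nothing of stability. With the length trend removed, the control hypoxia median of V-ATPase members was -0.10, against 0.08, the control hypoxia median of autophagy members -0.02, against 0.07, the normoxia RNAi median of autophagy members -0.0014, against 0.06, and 1 autophagy gene, T12G3.1, passed 2-fold higher. At 1.5-fold, control hypoxia had 1 V-ATPase and 1 autophagy member higher and 3 autophagy members lower, elt-2-labelled hypoxia had 1 autophagy member lower, and elt-2-labelled over control worms in hypoxia had 1 autophagy member higher, where each count was 0 at 2-fold.

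In limma, V-ATPase members called higher in hypoxia were 1 with a pseudocount of 0.1 and 1 with a mean of at least 5 (0 as reported), vha-5 in both. Those called lower were 0 with no trend and 1 with a single term (2 as reported). Autophagy members called higher were 0 with no trend (1 as reported), and those called lower were 1 with no filter, 1 with no trend and 0 with a single term, but 3, with atg-9 added, at a pseudocount of 0.1, at a mean of at least 5 and with centring (2 as reported). Over all genes, hypoxia calls higher were 1198 with no filter and 785 with a single term (1833 as reported), and calls lower 1017, 834 with no trend and 627 (1677 as reported). RNAi calls higher were 6 with a pseudocount of 5, 5 with no filter, 0 with no trend and 0 with a single term (14 as reported), and calls lower 45, 43, 0 and 1 (104 as reported). The cause was not tested.

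For single genes, the limma adjusted p of T12G3.1 ran from 0.0197 to 0.0525 over 7 alternatives, of vha-12 from 0.0174 to 0.0541, of atg-16.1 from 0.0261 to 0.0671, of vha-7 from 0.0309 to 0.164, of atg-18 from 0.0291 to 0.0933 and of atg-9 from 0.0392 to 0.0907, and every average kept its sign. Alternatives chosen after seeing the data were those of atg-9 and the values without the elt-2-labelled libraries, where the hypoxia ratio was 0.60 for vha-6, 0.97 for T12G3.1 and -0.87 for atg-9, with no test. Absolute depth is unknown, which limits what can be said of genes near 1 RPKM. No paired analysis was possible because each group has 1 library and the labels give no replicate numbers, and for the same reason no library could be left out within a group.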
